A study of Homo sapiens with 12 samples.

Results

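Aminoacyl-tRNA synthetases were followed through an RNA immunoprecipitation (RIP) of the RNA-binding protein HuR. The set holds 37 genes taken by name: 19 cytosolic enzymes or enzyme subunits, 16 mitochondrial enzymes and 2 scaffold proteins, AIMP1 and AIMP2. All 37 were found among the 57773 gene identifiers of the files by current symbol, and all 37 were among the 22984 genes with enough counts to be tested. The cells were HuH-7, an established human hepatoma line, and in both lines a V5-tagged HuR was stably overexpressed. The mutant line carried HuR K120/182R, in which a pair of lysines that take part in SUMOylation (attachment of a small ubiquitin-like protein) is replaced by arginine, and the WT line carried wild-type HuR. There were 4 groups of 3 libraries: mutant RIP and mutant input, WT RIP and WT input, where a RIP library holds RNA recovered with the V5 tag and an input library holds total RNA of the same kind of cells. The names of the deposited files carry the word DMSO, a common solvent, for all 12 libraries, while the labels name no treatment. Enrichment over input could not be set against RNA that sticks to the beads or antibody, since a mock or untagged control was not used here. The labels give 16 to 77 ng of RNA for each RIP library and 250 ng for each input library, so an effect of RNA amount cannot be told apart from precipitation. They name no separate cultures behind the replicates, and p-values therefore measure the spread between libraries, which may be technical. The labels do not say whether either line was a single clone or a pool.

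Aminoacyl-tRNA synthetases join each amino acid to its tRNA and so supply the ribosome with its substrates. The cytosolic and the mitochondrial enzymes are both encoded in the nucleus, for most amino acids by separate genes, while GARS1 (glycine) and KARS1 (lysine) serve both compartments. Several cytosolic enzymes (EPRS1, IARS1, KARS1, LARS1, MARS1, QARS1 and RARS1) are held with the AIMP scaffolds in the multisynthetase complex. HuR is known for binding U-rich and AU-rich stretches, mostly in introns and 3′ UTRs, and for stabilizing mRNAs. Many synthetase genes are known to be transcribed under ATF4, a factor of the amino acid response.

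The libraries held 31774994 to 73149117 counts, of which the 37 genes took 0.05183% to 0.1836%. All 12 hepatoma marker genes examined were tested, and their summed level was 3770 to 4220 CPM (counts relative to library size) in mutant RIP, 9350 to 10400 CPM in mutant input, 6000 to 6270 CPM in WT RIP and 11800 to 13800 CPM in WT input. Markers of endothelial cells summed to at most 0.127 CPM in any library, those of fibroblasts to 1.37 to 3.86 CPM, those of immune cells to 7.56 to 13.8 CPM and those of bile duct cells to 34.6 to 67.9 CPM. ELAVL1, the gene of HuR, averaged 27.2 ± 3.73 CPM in mutant RIP, 48.3 ± 4.18 CPM in mutant input, 34.5 ± 3.03 CPM in WT RIP and 58.2 ± 5.32 CPM in WT input (SD, n = 3 each). These counts do not separate the tagged from the endogenous transcript, so they do not check the labels. CPM values here are scaled by TMM, which takes the bulk of genes as unchanged between libraries, and each fold change is a log2 value, followed after ± by its standard error (SE) from the model.

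The 3′ UTRs of the synthetase mRNAs were searched for short AU-rich and U-rich motifs of the kind HuR is known to bind. ATTTA occurred in the 3′ UTR of 18 of the 37 genes (48.6%), against 71.4% of 13770 tested coding genes, and TTTTT in 21 (56.8%), against 79.4%. For 3′ UTRs of coding genes within 20% of each member's length the shares averaged 51% for ATTTA and 62% for TTTTT over the members. Both motifs were searched on the transcript strand, overlapping matches included. The 30-base window richest in T is shown for the 3 most and the 3 least enriched members in the mutant line, as the ends of the range. Motifs also lie outside these windows: the 3′ UTR of NARS2 holds 1 ATTTA and 3 TTTTT, and those of FARSA and AARS2 1 ATTTA each. The windows are written in DNA letters of GRCh37 along the transcript, 5′ to 3′, and ATTTA or runs of at least 5 T are in capitals.
RARS1: ttggcactgtttgcTTTTTTacaatcatgt
NARS2: tgttgttataatttgtttatatttgatgtt
FARS2: ttttgataaatggatcagttttaggacttt
FARSA: gttccttctgttgtcctgtgtggtgtgtct
AARS2: ttctttgctattacttctttcattaacaat
VARS1: accatggggatggcagcaataaaatatttt
The RARS1 window lies at chr5:167946240-167946269 (plus strand), in a 3′ UTR of only 111 bases, and the NARS2 window at chr11:78147052-78147081 (minus strand), in a 3′ UTR of 702 bases. Those of FARS2, FARSA, AARS2 and VARS1 lie at chr6:5771757-5771786, chr19:13033362-13033391, chr6:44267441-44267470 and chr6:31745304-31745333. The window of RARS1 held 15 T of 30 bases, that of NARS2 19 and that of FARS2 14, while FARSA had 15, AARS2 16 and VARS1 8. The 3′ UTRs of FARS2, FARSA, AARS2 and VARS1 were 154, 269, 1816 and 76 bases long. A longer 3′ UTR offers more windows to choose the richest from, so these counts do not compare the genes on equal terms. Members with TTTTT had a median enrichment of -0.01 in the mutant line (21 genes, 6 higher and 4 lower), and those without it -0.30 (16 genes, 4 higher and 8 lower). In the WT line the medians were -0.22 with TTTTT and -0.58 without. With ATTTA the medians were -0.04 in the mutant and -0.21 in the WT line (18 genes), and without it -0.18 and -0.43 (19 genes). These splits are descriptions with no test. Of all genes tested 29% were higher and 28% lower in the mutant line.

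The median level per kilobase of transcript was higher for cytosolic than for mitochondrial enzymes in every library. Over the 19 cytosolic genes it was 9.88 ± 0.91 CPM per kb in mutant RIP and 11.3 ± 0.351 in mutant input, and 8.75 ± 0.429 in WT RIP and 12.3 ± 1.01 in WT input. For the 16 mitochondrial genes it was 2.92 ± 0.344 CPM per kb in mutant RIP and 3.28 ± 0.327 in mutant input, and 2.70 ± 0.15 in WT RIP and 3.18 ± 0.171 in WT input (SD, n = 3 each). In the inputs KARS1, the lysyl enzyme, stood highest, with 46.8 ± 4.22 CPM per kb in mutant input and 42.0 ± 3.63 in WT input. MARS1 (methionine) followed with 25.4 ± 1.3 CPM per kb in mutant input, where IARS1 (isoleucine) had 23.7 ± 1.11, and the ranges of mean ± SD of these neighbours overlapped. In WT input the order below KARS1 was IARS1 with 25.6 ± 0.741 CPM per kb, the mitochondrial IARS2 with 24.2 ± 1.69 and MARS1 with 20.4 ± 1.28. In the precipitates RARS1, the arginyl enzyme, led instead, with 114 ± 8.04 CPM per kb in mutant RIP and 53.5 ± 9.42 in WT RIP, against 16.5 ± 1.58 in mutant input and 13.8 ± 0.474 in WT input. AARS2 and PARS2, mitochondrial enzymes for alanine and proline, were among the 3 lowest in each group, at 0.781 to 2.15 CPM per kb over the 4 group means.

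Which synthetase mRNAs were recovered with HuR was asked by comparing each precipitate with its own input. Few were enriched by much: RARS1 and NARS2, the mitochondrial asparaginyl enzyme, stood apart in both lines, and most other members lay near the level of all genes or below it. In the mutant line 10 of the 37 genes were higher in RIP than in input and 12 lower, where 57% of all 22984 genes tested passed the test, 29% higher and 28% lower (edgeR's quasi-likelihood test, Benjamini-Hochberg adjusted p under 0.05). The share of members called higher was thus close to that of all genes. In the WT line 3 were higher and 18 lower, where 50.9% of all genes passed, 25.6% higher and 25.4% lower. Coding genes alone, to which all members belong, leaned to lower calls. Of 14004 coding genes tested 3728 were higher and 5055 lower in the mutant line, and 3084 and 4769 in the WT line. The members' median was -0.09 in the mutant line, against 0.07 over all genes and -0.11 over coding genes, and -0.27 in the WT line, against 0.06 and -0.13. These directions hold relative to the bulk of genes: scaled by total library size, where the median of all genes moved to 1.38 in the mutant and 1.12 in the WT line, 32 members were higher and 0 lower in the mutant line and 27 higher and 1 lower in the WT line. With TMM taken from coding genes alone the split in the WT line was 5 higher and 13 lower, and with each library's trend with GC content removed it was 6 higher and 17 lower in the mutant line and 4 and 24 in the WT line.

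**Figure D1:**
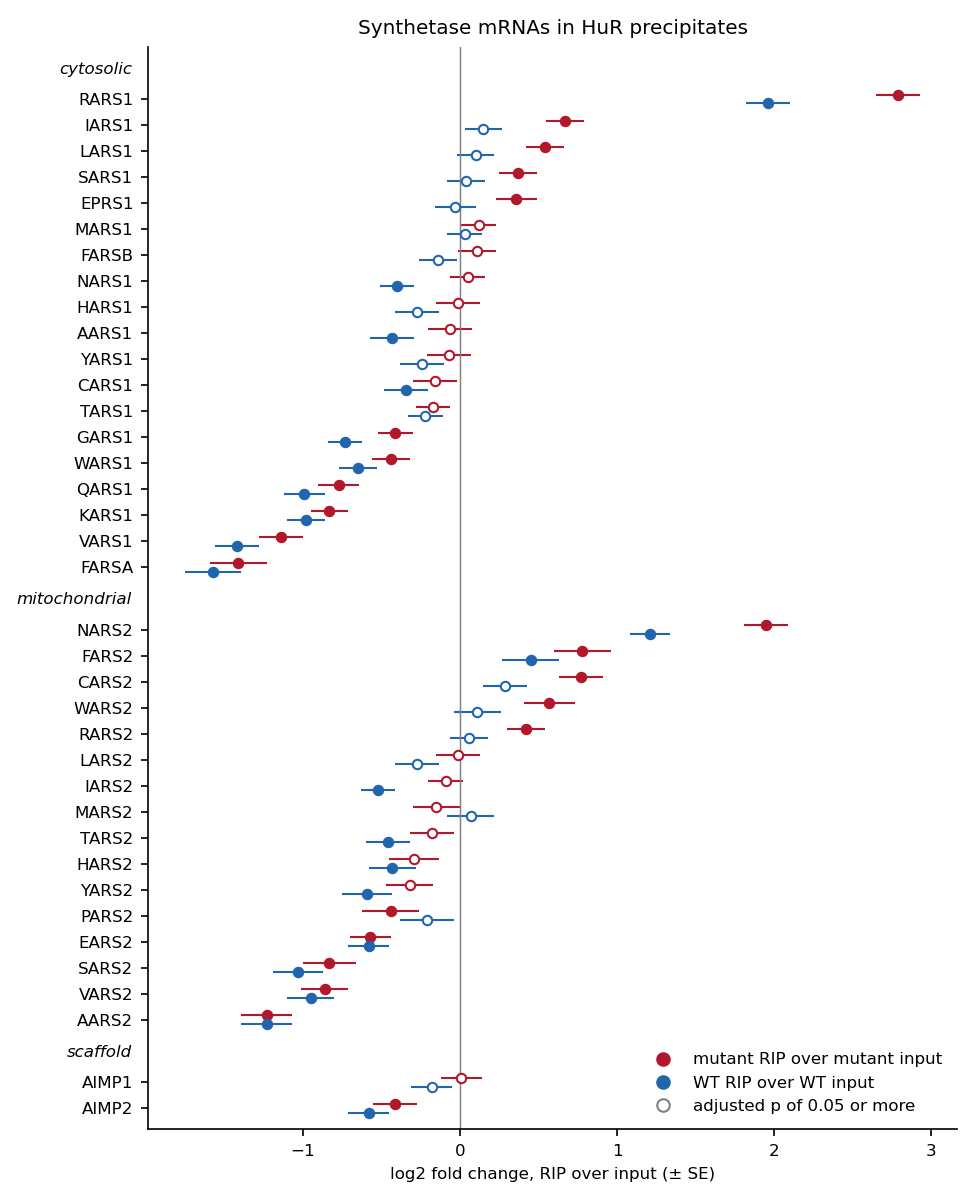
Enrichment of the 37 synthetase and scaffold mRNAs, as log2 fold change of RIP over input (x axis, points with SE, TMM scaling) for the mutant and the WT line, filled where the adjusted p was under 0.05. RARS1 stands at 2.79 in the mutant and 1.96 in the WT line and NARS2 at 1.95 and 1.21, while FARSA is lowest at -1.41 and -1.57, and with total library size most of the values below 0 lie above it.

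RARS1, which charges tRNA with arginine and sits in the multisynthetase complex, had by far the highest enrichment of the set. It lies at chr5:167913456-167946306 on the plus strand (GRCh37). Its level was 223, 248 and 255 CPM in mutant RIP, against 31.3, 37.9 and 35.5 CPM in mutant input. In the WT line it was 94.4, 112 and 134 CPM in WT RIP, against 28.5, 28.9 and 30.4 CPM in WT input. Every RIP library lay above every input library, and every mutant RIP library above every WT RIP library. The enrichment was 2.79 ± 0.14 in the mutant line (6.92-fold, adjusted p = 6.1e-14, edgeR) and 1.96 ± 0.14 in the WT line (3.88-fold, adjusted p = 2.5e-11, edgeR). Among 9784 coding genes with a mean log2 CPM of at least 2 it ranked 33 from the top in the mutant line and 98 in the WT line. Its share of the summed level of the cytosolic enzymes was 26.3 ± 1.9% in mutant RIP, 4.84 ± 0.524% in mutant input, 16.6 ± 1.99% in WT RIP and 3.96 ± 0.176% in WT input (SD, n = 3 each). Both enrichments were called under all 10 alternative settings and without any 1 of the 12 libraries. The one annotated pseudogene that carries its name, RARS1P1, had 4 counts over all 12 libraries; sharing of reads between the copies was not tested.

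NARS2, the mitochondrial asparaginyl enzyme, came second in both lines. It lies at chr11:78146666-78286239 on the minus strand. Its level was 35.1, 41.8 and 42.9 CPM in mutant RIP, against 10.4, 10.2 and 10.5 CPM in mutant input, and 26.6, 33.6 and 37.0 CPM in WT RIP, against 15.6, 13.2 and 13.1 CPM in WT input. The RIP and input libraries of a line did not overlap, but those of the mutant and WT precipitates did. Its enrichment was 1.95 ± 0.14 in the mutant line (adjusted p = 1.02e-11, edgeR) and 1.21 ± 0.13 in the WT line (adjusted p = 3.48e-08, edgeR), again called under every setting run and every library left out.

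FARS2, which charges mitochondrial tRNA with phenylalanine, was the one other member higher in both lines, but at low counts. It had 8.48, 8.03 and 6.03 CPM in mutant RIP, against 3.96, 5.30 and 3.91 CPM in mutant input, and 4.84, 4.92 and 5.95 CPM in WT RIP, against 4.12, 4.32 and 3.11 CPM in WT input. Neither line's RIP and input libraries overlapped. The enrichment was 0.78 ± 0.18 in the mutant line (adjusted p = 0.000666, edgeR) and 0.45 ± 0.18 in the WT line (adjusted p = 0.0417, edgeR), and the call in the WT line was lost without WT RIP library 3, mutant RIP library 2 or WT input library 3 (0.31 to 0.56 over the 12 leave-outs).

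A further 7 members were higher in RIP than in input in the mutant line and passed the test in neither direction in the WT line. Among them were 4 cytosolic enzymes: IARS1 (0.67 ± 0.12), LARS1 for leucine (0.54 ± 0.12), SARS1 for serine (0.37 ± 0.12) and EPRS1, the fused glutamyl-prolyl enzyme (0.36 ± 0.13). In the WT line these had 0.15, 0.10, 0.04 and -0.03. The other 3 were mitochondrial: CARS2 for cysteine (0.77 ± 0.14), WARS2 for tryptophan (0.57 ± 0.16) and RARS2 for arginine (0.42 ± 0.12), with 0.29, 0.11 and 0.06 in the WT line. A call in 1 line and not in the other does not show that the lines differ, and the test of that difference is given further on. The calls of IARS1, LARS1, EPRS1, RARS2 and WARS2 were lost when the GC trend was removed (0.21, 0.03, -0.13, -0.08 and 0.08). Those of EPRS1 and SARS1 were also lost without some libraries: EPRS1 without mutant RIP library 2, mutant input library 1 or mutant input library 3 (0.29 to 0.47), and SARS1 without mutant RIP library 1, mutant RIP library 2 or mutant input library 2 (0.32 to 0.44).

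Of the 12 members lower in RIP than in input in the mutant line, 11 were also lower in the WT line. FARSA, the alpha subunit of the cytosolic phenylalanyl enzyme, had 10.4, 10.0 and 6.42 CPM in mutant RIP, against 29.0, 20.5 and 22.5 CPM in mutant input, and 6.28, 8.38 and 7.11 CPM in WT RIP, against 19.2, 19.3 and 26.3 CPM in WT input. No RIP library reached an input library. Its fold change was -1.41 ± 0.18 in the mutant line (adjusted p = 5.65e-07, edgeR) and -1.57 ± 0.18 in the WT line (adjusted p = 1.91e-07, edgeR). Its partner FARSB, the beta subunit, passed the test in neither line (0.11 ± 0.12 in the mutant and -0.14 ± 0.12 in the WT line). With the GC trend removed FARSB was called lower in the mutant and the WT line (-0.45 and -0.50). With total library size it was called higher in both (1.42 and 0.91).

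VARS1, the cytosolic valyl enzyme, had 13.7, 13.4 and 12.7 CPM in mutant RIP, against 32.5, 28.2 and 27.0 CPM in mutant input. In the WT line it had 9.38, 13.6 and 10.7 CPM in WT RIP, against 28.9, 26.3 and 35.1 CPM in WT input. Its fold changes were -1.14 ± 0.14 in the mutant line (adjusted p = 1.67e-07, edgeR) and -1.42 ± 0.14 in the WT line (adjusted p = 7.46e-09, edgeR). AARS2, the mitochondrial alanyl enzyme, had 4.26, 4.83 and 4.08 CPM in mutant RIP, against 12.2, 9.35 and 9.33 CPM in mutant input, and 3.41, 4.28 and 3.55 CPM in WT RIP, against 9.78, 7.28 and 9.34 CPM in WT input. Its fold change was -1.23 ± 0.16 in each line. In both genes the RIP and input libraries were fully separate. KARS1, SARS2 (mitochondrial serine), QARS1 (glutamine) and VARS2 had -0.83, -0.83, -0.77 and -0.86 in the mutant line and -0.98, -1.03, -0.99 and -0.95 in the WT line, all called lower. GARS1, WARS1 (tryptophan), EARS2 (mitochondrial glutamate) and AIMP2 were also lower in both lines, at -0.41 to -0.57 in the mutant and -0.58 to -0.73 in the WT line. The AIMP2 call in the mutant line was lost without mutant RIP library 1 (-0.35 to -0.51). With total library size in place of TMM none of these members was called lower in the mutant line and 1, FARSA, was in the WT line (-0.53). SARS2 and VARS2 in the mutant line also lost their calls when the GC trend was removed (0.0 and -0.14).

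**Figure D2:**
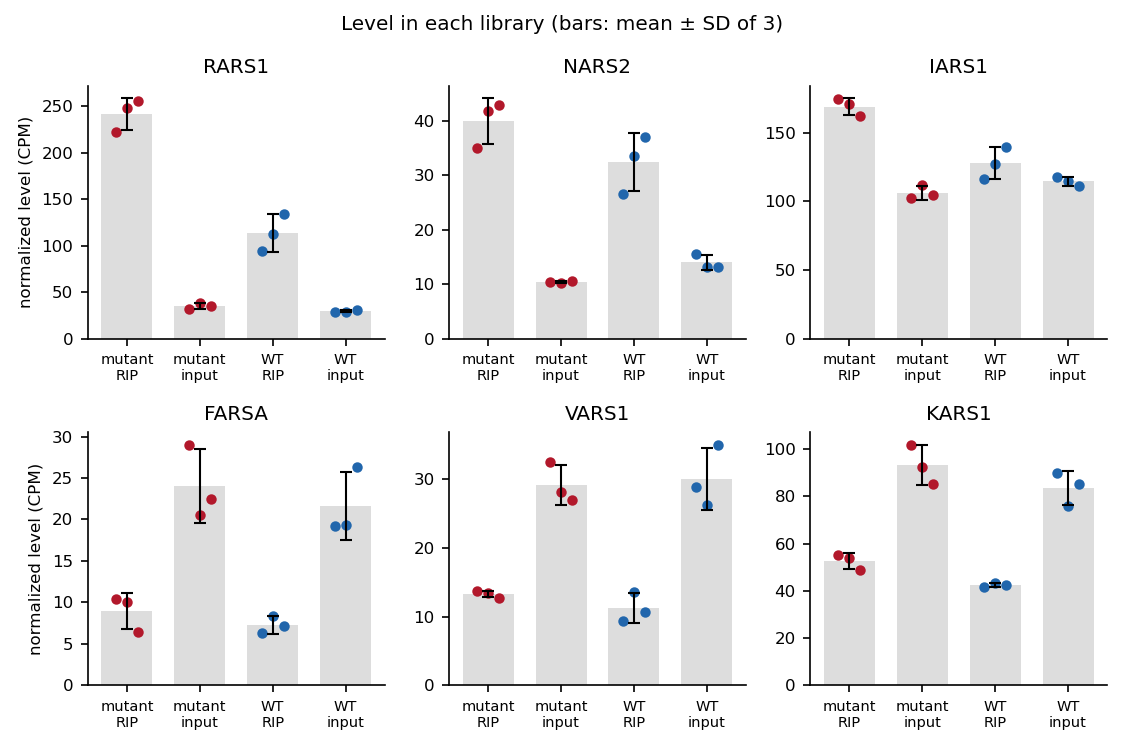
Level of 6 synthetase mRNAs in each of the 12 libraries, in TMM-scaled CPM on linear axes that start at 0, with points for libraries and bars for the mean ± SD of 3. RARS1 and NARS2 are above their inputs in every RIP library, and FARSA, VARS1 and KARS1 below theirs.

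Passing the test in 1 line alone, PARS2 was lower in the mutant line (-0.44 ± 0.18), and CARS1, NARS1, AARS1, HARS2, TARS2, IARS2 and YARS2 were lower in the WT line (-0.34 to -0.59). The CARS1 call was lost under each of the 10 alternative settings and in 10 of the 12 leave-outs, all but those of mutant RIP library 1 and WT RIP library 1 (-0.46 to -0.27). Others were lost without 1 library: PARS2 without mutant RIP library 3, mutant input library 1 or mutant input library 2 (-0.55 to -0.33), AARS1 without WT RIP library 1 or WT input library 3 (-0.53 to -0.28), HARS2 without WT RIP library 1, WT RIP library 3, WT input library 1 or WT input library 3 (-0.56 to -0.33), and TARS2 without WT input library 3 (-0.56 to -0.37). With TMM taken from coding genes the WT calls of AARS1, NARS1, HARS2 and TARS2 (-0.28, -0.26, -0.29 and -0.32) and the mutant calls of PARS2 and AIMP2 (-0.30 and -0.28) were lost. PARS2 was not called under 6 of the 10 settings in all, among them no filter (-0.42), the stricter filter (-0.37) and the GC trend removed (-0.18). HARS2 was not called with no filter (-0.41), nor TARS2 with the GC trend removed (-0.28). Conversely CARS2 was called higher in the WT line without WT RIP library 1 or mutant input library 1 and under 6 of the 10 alternative settings (0.31 to 1.34), and YARS2 lower in the mutant line without mutant input library 3.

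By compartment, 5 of the 19 cytosolic genes were higher and 6 lower in the mutant line, and 1 higher and 9 lower in the WT line. Of the 16 mitochondrial genes 5 were higher and 5 lower in the mutant line, and 2 higher and 8 lower in the WT line. For these and the groups below, 29% of all genes were higher and 28% lower in the mutant line. In the WT line the shares were 25.6% and 25.4%. The medians were -0.06 (cytosolic) and -0.17 (mitochondrial) in the mutant line, and -0.27 and -0.35 in the WT line. The 9 members of the multisynthetase complex gave 4 higher (RARS1, IARS1, LARS1 and EPRS1) and 3 lower (KARS1, QARS1 and AIMP2) in the mutant line, and 1 higher (RARS1) and the same 3 lower in the WT line. The mRNAs of 1 complex were thus spread from -0.83 to 2.79 in the mutant line. Class I enzymes, which share a Rossmann-type catalytic fold, gave 7 higher and 5 lower of 19 in the mutant line and 1 higher and 8 lower in the WT line. Class II enzymes gave 3 higher and 6 lower of 16 in the mutant line and 2 higher and 9 lower in the WT line. With total library size 32 members in the mutant line and 27 in the WT line were higher, so the lower calls of each of these groups hold for TMM scaling.

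For 13 amino acids the set holds 1 cytosolic and 1 mitochondrial gene that each serve that amino acid alone, and these were paired. Phenylalanine (FARSA and FARSB against FARS2) and glutamate and proline (the fused EPRS1 against EARS2 and PARS2) were left out. FARSA was lower and FARS2 higher in both lines, while FARSB passed in neither. EPRS1 was higher and EARS2 and PARS2 lower in the mutant line. In the WT line EARS2 was lower, and EPRS1 and PARS2 were not called. In each line 7 of the 13 pairs had fold changes of the same sign. In the mutant line both were higher for 1 amino acid (arginine), both lower for 1 (valine), opposite for 2 (serine and tryptophan), 1 alone was called for 5 and neither for 4. In the WT line both were lower for 2 (alanine and valine), opposite for 1 (asparagine), 1 alone was called for 8 and neither for 2. The widest pair was arginine, where RARS1 lay above RARS2 by 2.37 in the mutant and 1.90 in the WT line on the log2 scale. Asparagine ran the other way, with NARS1 minus NARS2 at -1.90 in the mutant and -1.61 in the WT line. Alanine had the cytosolic enzyme above the mitochondrial one by 1.17 in the mutant line and by 0.81 in the WT line. These differences compare enrichments of different genes and were not tested.

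**Figure D3:**
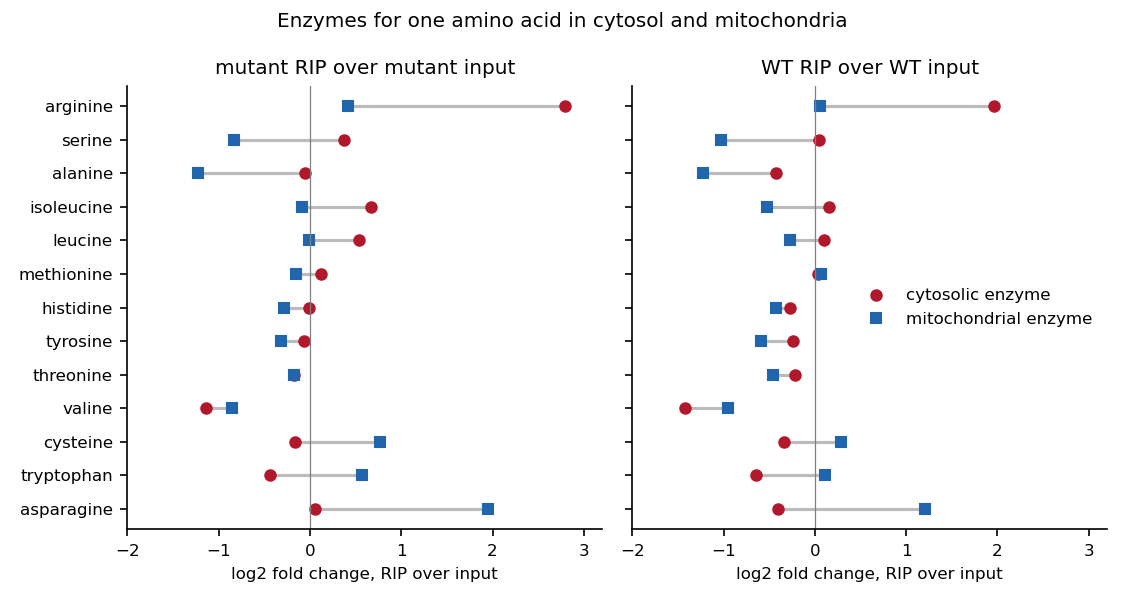
Enrichment (log2 fold change of RIP over input, x axis, TMM scaling) of the cytosolic enzyme (circle) and the mitochondrial enzyme (square) for each of 13 amino acids, in the mutant and the WT line. Arginine and serine have the cytosolic enzyme far to the right and asparagine the mitochondrial one, while threonine nearly coincides in the mutant line and methionine in the WT line.

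Enrichment of the members was lower in transcripts of higher GC content. Across the 37 genes, which share libraries and are not independent replicates, Spearman's rho between enrichment and transcript GC content was -0.56 in the mutant line and -0.51 in the WT line, against -0.54 and -0.46 over 14004 coding genes. With the GC content of the coding sequence it was -0.61 in the mutant and -0.51 in the WT line, and with that of the 3′ UTR -0.44 in both. With the length of the 3′ UTR it was 0.04 and 0.09. Of the 9 members above 53.9% GC, 7 were lower in each line and 1 (CARS2) was higher in the mutant line, where 63.5% of the coding genes in that band were lower in the mutant and 57.4% in the WT line. Of the 11 members below 43.7% GC, 6 were higher and 0 lower in the mutant line, where 47.6% of coding genes of that band were higher and 13.6% lower. Of these 11 genes 1 was higher and 2 lower in the WT line, where 35.2% of coding genes of that band were higher and 15.7% lower. The median of these 11 was 0.36 in the mutant and -0.03 in the WT line, against 0.38 and 0.18 over coding genes of that band. RARS1 has a GC content of 41.1% and NARS2 43.9%. Removing the GC trend left both called higher in both lines.

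**Figure D4:**
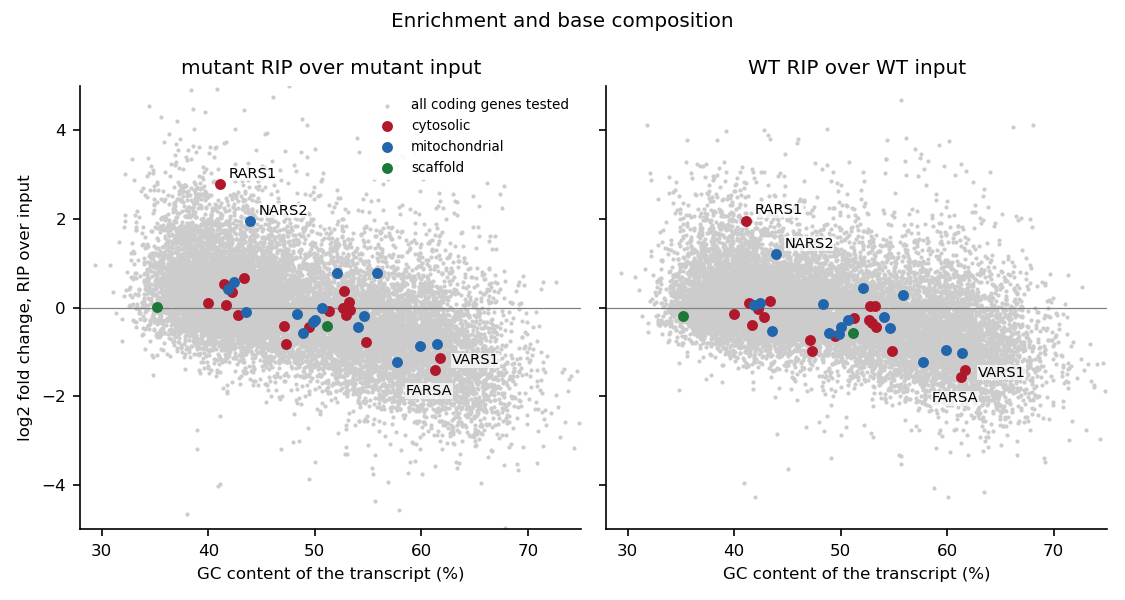
Enrichment (log2 fold change of RIP over input, y axis, TMM scaling) against the GC content of the transcript in percent (x axis), for all coding genes tested (grey) and the members (coloured), in the mutant and the WT line; genes beyond the axis limits are not drawn. The members lie within the grey cloud and fall with GC content, with RARS1 and NARS2 near its upper edge.

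Whether the mutation changed the recovery of synthetase mRNAs was asked by testing the difference of the 2 enrichments, mutant minus WT. None of the 37 genes passed (0 higher and 0 lower, edgeR's quasi-likelihood test), where 0.0653% of all genes were higher and 0% lower. In simulated counts this test found 27% of changes of 1 and 3% of changes of 0.5 on the log2 scale. A gene that did not pass is therefore not shown to be unchanged. The simulation changed a small share of genes at all count levels, so these shares are not the members' own. At an unadjusted p under 0.05 there were 10 members, where 13.1% of all genes passed. DESeq2, which called 1.89% of all genes, called 3 members (RARS1, IARS1 and NARS2, adjusted p = 0.00192, 0.0122 and 0.0176). It gave no adjusted p for AARS2, FARS2, HARS2, MARS2, PARS2, SARS2, VARS2, WARS2 and YARS2, all mitochondrial enzymes. Genes without an adjusted p count as not called in both figures. The differences nevertheless lay mostly on 1 side: 35 of 37 were above 0, with a median of 0.26, against 0.00 over all genes, where 50.4% were above 0. All 37 share the same 12 libraries, so that count is a description. Leaving out any 1 library gave 32 to 35 above 0 with a median of 0.20 to 0.32, removing the GC trend gave 33, and with total library size, which moved the median of all genes to 0.25, it was 37.

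RARS1 had the largest difference, 0.83 ± 0.19 (unadjusted p = 0.00015, adjusted p = 0.0782, edgeR). It passed without WT RIP library 3 (0.97), with total library size (1.09), with no filter on low counts (0.82) and with a replicate block and the GC trend removed together (0.68). Its adjusted p ranged from 0.00192 (DESeq2) to 0.321 (edgeR, without WT input library 1) over all alternatives run. NARS2 followed with 0.74 ± 0.19 (adjusted p = 0.108, edgeR, and 0.0176 to 0.382 over the alternatives). IARS1 had 0.52 ± 0.17 (adjusted p = 0.176, edgeR, and 0.0122 to 0.437 over the alternatives). The other members with an unadjusted p under 0.05 were CARS2, WARS2, NARS1, LARS1, IARS2, EPRS1 and RARS2, with differences of 0.36 to 0.48. The 2 genes below 0 were MARS2 (-0.22 ± 0.21) and PARS2 (-0.23 ± 0.25), the mitochondrial methionyl and prolyl enzymes. By GC content the median difference of members was 0.43 below 43.7% GC and 0.19 above 53.9%, where coding genes of those bands had 0.20 and -0.17.

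Set directly against the WT precipitate, the mutant precipitate held more of several synthetase mRNAs. Between the RIPs 10 of 37 members were higher and 0 lower, where 9.87% of all genes were higher and 9.76% lower (edgeR). In either direction 19.6% of all genes passed. No member was lower at an unadjusted p under 0.05, where 15.8% of all genes were, or by DESeq2, where 9.46% were. With the replicate block and the GC trend removed together 13 were higher and 1, FARSB, was lower (-0.27). KARS1 missed the threshold (0.31 ± 0.12, adjusted p = 0.0652, edgeR). It was called higher with DESeq2 or its size factors, TMM from coding genes, the stricter filter and the GC trend removed, with or without the block (0.28 to 0.34). VARS1 was called higher with the GC trend removed (0.29), and FARSA only with the block added to that (0.33). The members' median was 0.18, against 0.01 over all genes. This comparison uses the same RIP libraries as the enrichments, and takes no account of the inputs. The count was 5 without WT RIP library 1, 6 without WT RIP library 3, 6 without mutant RIP library 1 and 3 without mutant RIP library 2, and with total library size it was 1 (RARS1), where the median of all genes moved to -0.17.

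RARS1 led with 1.09 ± 0.13 (2.13-fold, adjusted p = 2.66e-06, edgeR), on the values given above, and was called under every alternative run. AARS1, the cytosolic alanyl enzyme, had 51.9, 54.3 and 46.0 CPM in mutant RIP, against 31.3, 39.7 and 33.2 CPM in WT RIP, without overlap. Its fold change was 0.55 ± 0.14 (adjusted p = 0.00602, edgeR), and it was called in each of the 12 leave-outs. IARS1 had 174.6, 170.8 and 162.5 CPM in mutant RIP, against 116.5, 127 and 139.9 CPM in WT RIP (0.41 ± 0.12), while its inputs, at 102.5, 112 and 104.5 CPM in mutant input and 118, 115 and 111 CPM in WT input, overlapped. Its call was lost without WT RIP library 1 or mutant RIP library 2 (0.34 to 0.48).

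MARS1 had 76.0, 83.6 and 72.4 CPM in mutant RIP, against 56.9, 60.9 and 57.8 CPM in WT RIP (0.40 ± 0.11), and also stood above WT in the input, at 74.0, 72.3 and 67.0 CPM in mutant input, against 54.3, 56.0 and 61.2 CPM in WT input. That input difference was 0.32 ± 0.11 and missed the threshold (adjusted p = 0.0542, edgeR, and 0.00788 to 0.692 over the alternatives). It was called higher under 5 of the 10 alternative settings (0.34 to 0.35) and was -0.12 with total library size. The MARS1 gene shares 5.051% of its exon bases with the opposite-strand gene DDIT3. The RIP call of MARS1 was lost without mutant RIP library 2 (0.34 to 0.45).

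CARS1, the cytosolic cysteinyl enzyme, had 9.82, 10.7 and 10.2 CPM in mutant RIP, against 8.37, 6.75 and 6.56 CPM in WT RIP, with a fold change of 0.50 ± 0.14, lost without WT RIP library 3 or mutant RIP library 2 (0.44 to 0.62). SARS1 (0.37 ± 0.12) and YARS1, the cytosolic tyrosyl enzyme (0.38 ± 0.13), were near the threshold. SARS1 had 22.9, 22.8 and 19.4 CPM in mutant RIP, against 16.3, 16.9 and 17.1 CPM in WT RIP, and was called in 3 of the 12 leave-outs, those of mutant RIP library 3, mutant input library 1 and WT input library 3 (0.33 to 0.45). YARS1 had 38.4, 44.05 and 39.6 CPM in mutant RIP, against 27.5, 33.6 and 32.8 CPM in WT RIP, and was called in 3, those of WT RIP library 2, mutant input library 1 and WT input library 3 (0.29 to 0.43). With no filter on low counts SARS1, YARS1 and AIMP1 were not called (0.35, 0.36 and 0.40), nor YARS1 with the replicate block (0.38), nor IARS1 when only the RIP groups were fitted (0.40). In CARS1, SARS1 and YARS1 the mutant and WT precipitates did not overlap.

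Of the mitochondrial enzymes FARS2 (0.52 ± 0.17) and YARS2 for tyrosine (0.51 ± 0.15) were higher in the mutant RIP. YARS2 had 5.74, 6.90 and 5.73 CPM in mutant RIP, against 4.23, 4.24 and 4.42 CPM in WT RIP. The scaffold AIMP1 had 17.2, 15.4 and 17.2 CPM in mutant RIP, against 13.7, 12.8 and 10.8 CPM in WT RIP (0.42 ± 0.13), while AIMP2 had -0.04 ± 0.13. YARS2 and AIMP1 libraries did not overlap. The call was lost without WT RIP library 1, WT RIP library 2, mutant RIP library 1, mutant RIP library 2 or WT input library 1 for FARS2 (0.42 to 0.66), without WT RIP library 1 or mutant RIP library 2 for YARS2 (0.42 to 0.56), and without WT RIP library 3, mutant RIP library 1 or mutant RIP library 3 for AIMP1 (0.33 to 0.49). By group, 7 of 19 cytosolic genes, 2 of 16 mitochondrial genes and 4 of 9 complex members were called, where 9.87% of all genes were higher.

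**Figure D5:**
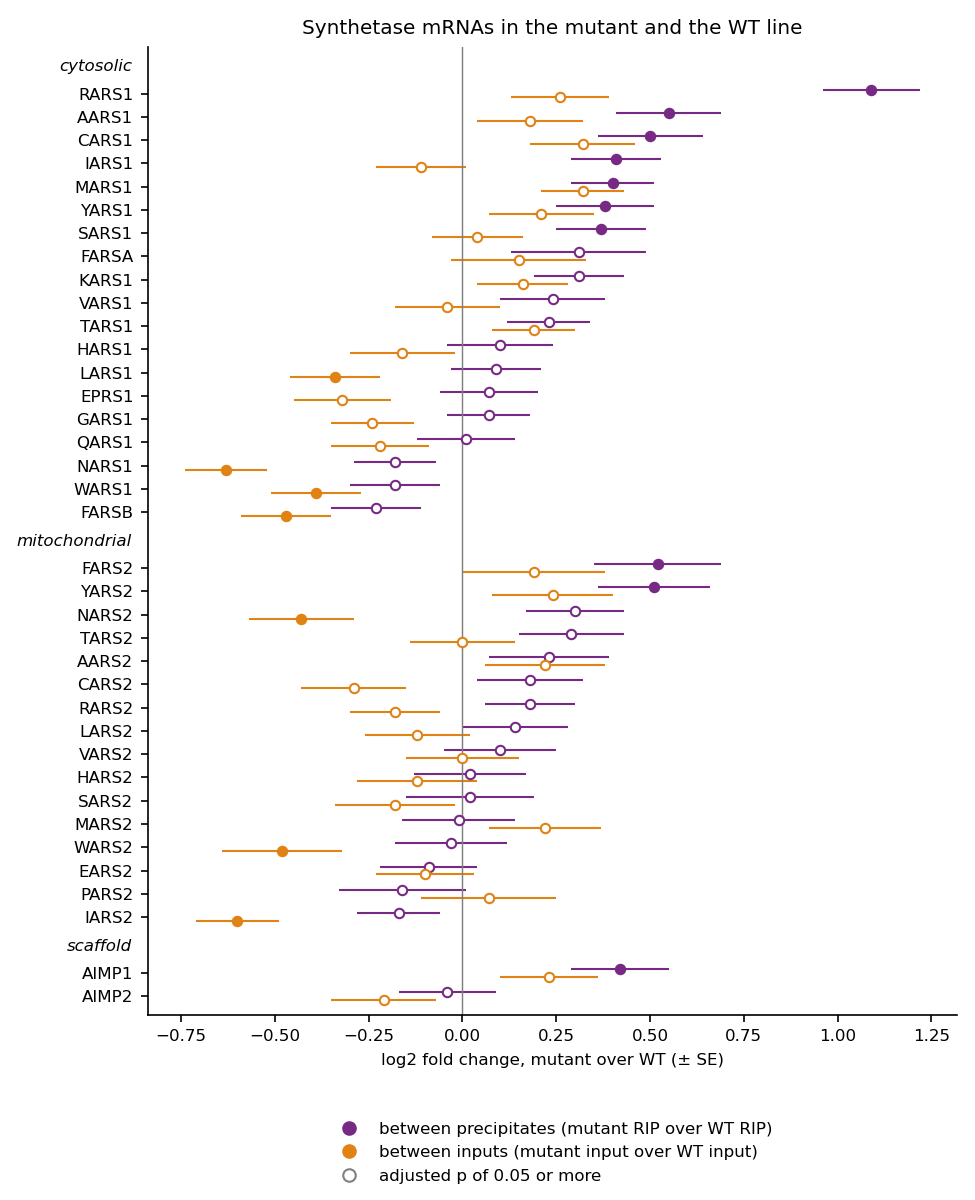
Difference between the lines for the 37 members, as log2 fold change of mutant over WT (x axis, points with SE, TMM scaling), between precipitates and between inputs, filled where the adjusted p was under 0.05. Between precipitates the called members run from 0.37 to 1.09, and between inputs from -0.63 to -0.34.

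Promoters of the members are shown because 5 of the 10 genes called between the precipitates hold a motif that is infrequent in other promoters. The motif TGATGNAA is the C/EBP-ATF response element, the kind of site through which ATF4 is known to act in mammalian cells. On either strand of 300 bases around the gene's start (RefSeq, GRCh38.p14) it occurred in 7 of the 32 members with an entry (21.9%), against 2.02% of 12573 promoters of genes tested and 3.67% of 27305 promoters in all. LARS1, VARS1, YARS1, AARS2 and VARS2 had no entry, so YARS1, 1 of the 10 genes called, could not be searched. The 7 were AARS1, CARS1, IARS1, MARS1, NARS1, TARS1 and YARS2. In all of them but YARS2 the match was the 8 bases TTGCATCA or its reverse complement, which occurred in 18.8% of members' promoters and 0.509% of those of genes tested. The promoters of the 5 called genes follow, 5′ to 3′ along the gene, with the match in capitals.
AARS1: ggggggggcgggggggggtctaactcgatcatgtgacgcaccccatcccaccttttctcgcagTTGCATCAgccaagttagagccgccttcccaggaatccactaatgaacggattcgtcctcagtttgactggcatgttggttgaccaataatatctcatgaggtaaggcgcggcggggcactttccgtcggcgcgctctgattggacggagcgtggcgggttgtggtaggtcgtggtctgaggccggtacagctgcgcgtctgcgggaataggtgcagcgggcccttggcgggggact
CARS1: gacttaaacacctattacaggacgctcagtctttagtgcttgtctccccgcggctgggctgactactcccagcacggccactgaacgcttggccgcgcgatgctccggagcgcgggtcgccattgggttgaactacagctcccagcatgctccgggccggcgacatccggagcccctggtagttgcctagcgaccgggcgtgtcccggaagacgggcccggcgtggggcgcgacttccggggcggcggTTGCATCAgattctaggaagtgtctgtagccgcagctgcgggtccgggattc
IARS1: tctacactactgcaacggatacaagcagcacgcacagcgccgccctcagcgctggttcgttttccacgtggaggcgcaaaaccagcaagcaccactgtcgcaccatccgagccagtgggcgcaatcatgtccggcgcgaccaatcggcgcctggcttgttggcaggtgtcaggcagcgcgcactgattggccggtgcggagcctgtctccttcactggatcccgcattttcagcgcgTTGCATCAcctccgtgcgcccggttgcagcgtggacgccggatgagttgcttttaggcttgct
MARS1: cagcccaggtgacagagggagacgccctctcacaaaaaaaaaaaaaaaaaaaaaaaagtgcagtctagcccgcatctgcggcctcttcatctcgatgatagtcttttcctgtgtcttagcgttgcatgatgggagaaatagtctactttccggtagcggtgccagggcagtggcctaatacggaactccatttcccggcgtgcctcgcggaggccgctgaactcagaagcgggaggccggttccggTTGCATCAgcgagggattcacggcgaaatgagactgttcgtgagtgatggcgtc
YARS2: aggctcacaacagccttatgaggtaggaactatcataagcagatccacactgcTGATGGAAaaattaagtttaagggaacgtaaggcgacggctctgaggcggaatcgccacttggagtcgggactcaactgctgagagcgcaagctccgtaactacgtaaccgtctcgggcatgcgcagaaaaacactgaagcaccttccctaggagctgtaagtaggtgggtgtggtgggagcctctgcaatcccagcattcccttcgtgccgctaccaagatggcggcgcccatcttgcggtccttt
They lie at chr16:70289457-70289756 (minus strand), chr11:3057374-3057673 (minus), chr9:92293648-92293947 (minus), chr12:57487818-57488117 (plus) and chr12:32755848-32756147 (minus). Of the 7 genes with the motif 5 were higher in mutant RIP than in WT RIP, with a median of 0.41. Of the 25 without it 4 were, with a median of 0.07, where 9.87% of all genes were higher. The motif is shown because of these calls, so this split restates that choice and is no test. The share called among other genes with the motif was not examined. Between the inputs the medians were 0.19 with the motif (0 higher, 1 lower) and -0.16 without (0 higher, 5 lower). In the difference of enrichments they were 0.27 and 0.26. A match is a run of letters and was not tested for binding, and RARS1 and NARS2 have none in this window.

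Between the inputs, where the lines are compared without precipitation, no member was called higher and a few were called lower. Of the 37 genes 0 were higher and 7 lower in mutant input, where 17.5% of all genes passed the test, 7.47% higher and 10% lower (edgeR). The members' median was -0.10, against -0.06 over the 9784 coding genes used for ranks, and 17 of 37 members were above 0 (20 without WT input library 3), where 42.4% of those coding genes were. At an unadjusted p under 0.05 CARS1 and MARS1 were higher, where 14.1% of all genes were, and DESeq2 called 1 member higher, where it called 9.76% of all genes. With DESeq2 size factors, or TMM from coding genes, the split was 1 higher and 5 lower, with the GC trend removed 2 and 7, and with total library size 0 higher and 19 lower with all 37 below 0, where the median of all genes moved to -0.43. The count was 3 without WT input library 1, 4 without WT input library 3, 4 without mutant input library 1 and 3 without mutant input library 3. Fewer cells in a state and less RNA per cell cannot be told apart in such bulk samples.

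NARS1 and IARS2 had the largest input differences of the 37 members. NARS1, the cytosolic asparaginyl enzyme, had 31.8, 32.5 and 28.2 CPM in mutant input, against 48.5, 47.1 and 47.4 CPM in WT input, without overlap (-0.63 ± 0.11, adjusted p = 0.000353, edgeR). IARS2, the mitochondrial isoleucyl enzyme, had 59.0, 56.2 and 54.0 CPM in mutant input, against 92.2, 81.9 and 81.9 CPM in WT input (-0.60 ± 0.11, adjusted p = 0.000577, edgeR). NARS2 was lower too, without overlap on the values given above (-0.43 ± 0.14), so both asparaginyl enzymes were lower in the mutant input, and so were both tryptophanyl enzymes, WARS1 (-0.39 ± 0.12) and WARS2 (-0.48 ± 0.16).

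FARSB had 22.5, 27.7 and 25.6 CPM in mutant input, against 36.3, 34.3 and 34.3 CPM in WT input (-0.47 ± 0.12), while FARSA, which encodes the other subunit of the same enzyme, had 0.15 ± 0.18. WARS1 had 13.9, 14.1 and 14.4 CPM in mutant input, against 18.6, 18.1 and 18.7 CPM in WT input, and WARS2 had 5.36, 5.38 and 5.60 CPM in mutant input, against 8.34, 6.75 and 7.74 CPM in WT input. LARS1 had 20.9, 25.6 and 19.4 CPM in mutant input, against 27.3, 27.2 and 29.1 CPM in WT input (-0.34 ± 0.12). None of these 4 overlapped between the lines. The NARS1, IARS2 and FARSB calls were kept in each of the 12 leave-outs. LARS1 was called in 2 of them, those of WT RIP library 2 and mutant input library 2 (-0.44 to -0.26), and lost its call under 8 of the 10 alternative settings (-0.36 to -0.23 in those). The WARS1 call was lost without any 1 of the 6 input libraries (-0.40 to -0.36), that of NARS2 without WT input library 1 or any 1 of the mutant input libraries (-0.48 to -0.33), and that of WARS2 without WT input library 1, WT input library 3 or any 1 of the mutant input libraries (-0.56 to -0.40). WARS2 was also not called with DESeq2 size factors (-0.45), TMM from coding genes (-0.44) or the GC trend removed, with or without the replicate block (-0.39), nor WARS1 with no filter on low counts (-0.40). EPRS1 was called lower without mutant input library 2 and CARS2 without mutant input library 1.

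Summed over the cytosolic enzymes the level was 918 ± 19.5 CPM in mutant RIP and 723 ± 31.8 CPM in mutant input, against 682 ± 47.8 CPM in WT RIP and 739 ± 38.9 CPM in WT input (SD, n = 3 each). Without RARS1 the sums were 676 ± 24.7 CPM in mutant RIP and 688 ± 32.7 CPM in mutant input, against 568 ± 31.4 CPM in WT RIP and 710 ± 38.6 CPM in WT input. The mitochondrial enzymes summed to 240 ± 5.13 CPM in mutant RIP and 215 ± 12.3 CPM in mutant input, against 224 ± 10.6 CPM in WT RIP and 256 ± 13.5 CPM in WT input. Without RARS1 the cytosolic sums of mutant RIP and mutant input lay within 1 SD of each other. The ratio of the cytosolic to the mitochondrial sum was 3.83 ± 0.0737 in mutant RIP, 3.36 ± 0.145 in mutant input, 3.03 ± 0.0854 in WT RIP and 2.89 ± 0.11 in WT input.

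Among 27 genes that process, edit or deliver tRNA, 8 were higher and 4 lower over input in the mutant line, where 29% and 28% of all genes were, and 9 higher and 6 lower in the WT line, where 25.6% and 25.4% were. Between the precipitates 7 were higher and 4 lower in the mutant (9.87% and 9.76% of all genes), and between the inputs 3 and 2 (7.47% and 10%). SEPSECS, which makes selenocysteinyl tRNA, had enrichments of 2.18 ± 0.14 in the mutant and 1.69 ± 0.14 in the WT line. TSEN34 and TSEN54, which take part in tRNA splicing, had -1.42 ± 0.16 and -1.02 ± 0.19 in the mutant and -1.29 ± 0.15 and -0.98 ± 0.19 in the WT line. ELAC1, a tRNA 3′ processing nuclease, had 1.12 ± 0.14 in the mutant and 0.68 ± 0.14 in the WT line. THG1L, which adds a guanosine to histidyl tRNA, had 0.82 ± 0.33 in the mutant and 0.93 ± 0.36 in the WT line at 0.45 to 1.95 CPM on average per group.

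Among 20 genes of amino acid sensing and the ATF4 response, 8 were higher and 1 lower in mutant input than in WT input, where 7.47% of all genes were higher and 10% lower. Those called in the most comparisons were DDIT4 (1.58 ± 0.17), DDIT3 (0.86 ± 0.12), CEBPB (0.76 ± 0.15) and the amino acid transporter subunits SLC7A5 (0.66 ± 0.14) and SLC3A2 (0.59 ± 0.11), all of them among the 8. ATF4 itself, named after its values were seen, had 0.43 ± 0.13 (adjusted p = 0.0213, edgeR). Between the precipitates 7 of the 20 were higher in the mutant and 2 lower (9.87% and 9.76% of all genes). Over input, 3 were higher and 10 lower in the mutant line, where 29% and 28% of all genes were, and 3 higher and 11 lower in the WT line, where 25.6% and 25.4% were. SLC7A5 was lowest with -2.88 ± 0.15 in the mutant and -1.99 ± 0.14 in the WT line, and DDIT3 had 1.14 ± 0.12 and 1.11 ± 0.12. The motif TGATGNAA was found in 3 of the 18 promoters of this list with an entry (16.7%).

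Some members share exon bases with other genes, and whether counting used strand is not given in the sources used here. SARS2 shares 48.16% of its exon bases with a coding gene on the same strand, and VARS2 shares 62.98% with a noncoding gene on the same strand. AIMP2 shares 29.1% with EIF2AK1 on the opposite strand, which had 45092 counts over the 12 libraries, against 7378 for AIMP2. YARS2 shares 18.07% with a noncoding gene on the opposite strand. The noncoding genes that overlap VARS2 and YARS2 were not among the gene identifiers counted. Smaller shares occur in other members, such as 7.7% of HARS1 with WDR55 and 5.051% of MARS1 with DDIT3, both on the opposite strand. The values of all members with shared bases are uncertain to that extent. IARS1 hosts the small nucleolar RNA SNORA84 in its gene body, which was counted apart with 1329 counts.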

How the data were processed

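Stranded total RNA libraries (TruSeq Stranded Total RNA, per the labels) were sequenced from 12 samples. The authors deposited whole-number read counts per Ensembl gene. Per the submitters' processing notes these were made with bcl2fastq 2.20.0.422, cutadapt, STAR 2.4.0j and featureCounts 1.6.4 on hg19; the annotation and the strand setting are not given in the sources used here. The 37 members and the other gene lists were chosen with earlier results of these data known.

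Counts were filtered (filterByExpr, at least 10 counts in enough libraries and 15 in all), scaled by TMM and fitted with edgeR 4.0.16 (robust quasi-likelihood, 4 groups, 8 residual degrees of freedom, biological coefficient of variation 0.157) in R 4.3.3. Benjamini-Hochberg adjustment ran over all 22984 genes tested, and a gene was called at an adjusted p under 0.05. Alternatives were DESeq2 1.42.0, other scalings and filters (none, or 50 counts in 3 libraries), a lowess correction for GC content (span 0.3), a replicate block, a fit on only the groups compared, and leaving out each library. Totals of 31774994 to 73149117 counts set the precision. Replicate libraries differed by more than sampling noise, so each was counted as 1.

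The fit was tested on simulated counts before use, with changed genes drawn at random from all genes tested. For the difference of enrichments it found 27% of changes of 1 and 3% of changes of 0.5 on the log2 scale. In the other comparisons it found 46% to 58% and 9% to 14%. Only a small share of genes was changed, so these shares do not carry over to the members or to the real number of calls. Genes were placed by GENCODE 44 on GRCh37, promoters are those of RefSeq on GRCh38.p14, and ranks used coding genes with a mean log2 CPM of at least 2. Any member could be named; per-library values were given for members called between the lines and for the 3 highest and 3 lowest of each enrichment, and at most 6 genes called in the most comparisons were named from each other list.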

Additional observations from a re-analysis of the deposited data

How the results depend on the processing

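Leaving out 1 library at a time gave 20 to 22 members called for the mutant enrichment, 16 to 21 for the WT enrichment, 0 to 1 for the difference of enrichments, 3 to 10 between the precipitates and 3 to 7 between the inputs. The difference of enrichments had 1 member called with total library size, 1 with no filter on low counts, 3 with DESeq2 and 3 with the replicate block and the GC trend removed together (RARS1, CARS2 and NARS2). With total library size 1 member was called between the precipitates and 19 between the inputs. The other settings kept each count within 1.5 times that reported.

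Same-numbered libraries did not deviate together throughout. Between mutant and WT inputs their correlations were -0.355, 0.163 and -0.521, where the highest with another number were 0.605, 0.282 and 0.355. Between mutant and WT precipitates they were 0.357, 0.612 and 0.044, where the highest with another number were 0.158, -0.249 and 0.002. Each mutant RIP library thus deviated most like the WT RIP library of its number, while the mutant inputs did not so match the WT inputs. Replicate numbers were not taken as pairs in the main fit, and a block on them was run as an alternative. With the replicate block the counts were 22 for the mutant enrichment, 20 for the WT enrichment (CARS1 not called), 0 for the difference, 9 between precipitates (YARS1 not called) and 6 between inputs (LARS1 not called).

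Of enrichments called in either fit, log2 fold changes turned sign with total library size, which does not centre the bulk of genes, and with the GC trend removed. With total library size the mutant enrichments became AARS1 1.25, CARS1 1.14, GARS1 0.89, HARS1 1.30, KARS1 0.48, QARS1 0.55, TARS1 1.15, VARS1 0.17, WARS1 0.87, YARS1 1.23, AARS2 0.07, EARS2 0.73, HARS2 1.02, IARS2 1.21, LARS2 1.29, MARS2 1.15, PARS2 0.87, SARS2 0.47, TARS2 1.13, VARS2 0.44, YARS2 0.98 and AIMP2 0.89. The WT enrichments became AARS1 0.60, CARS1 0.72, EPRS1 1.01, FARSB 0.91, GARS1 0.33, HARS1 0.77, KARS1 0.06, NARS1 0.65, QARS1 0.04, TARS1 0.83, WARS1 0.40, YARS1 0.79, EARS2 0.46, HARS2 0.60, IARS2 0.53, LARS2 0.76, PARS2 0.85, SARS2 0.01, TARS2 0.57, VARS2 0.07, YARS2 0.46, AIMP1 0.88 and AIMP2 0.49. With the GC trend removed the mutant enrichments became EPRS1 -0.13, FARSB -0.45, NARS1 -0.47, RARS2 -0.08, SARS2 0.00 and AIMP1 -0.75, and the WT enrichments LARS1 -0.26 and RARS2 -0.30. With the replicate block added to that, the mutant values were EPRS1 -0.13, FARSB -0.45, NARS1 -0.47, RARS2 -0.09, SARS2 0.01 and AIMP1 -0.76, and the WT values LARS1 -0.26 and RARS2 -0.30. The cause of these changes beyond the scaling itself was not tested.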
